A study of Mus musculus with 23 samples.

Results

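A set of 10 genes that build and furnish lipoprotein particles in the liver were followed in mice given a ligand of the pregnane X receptor (PXR). They were *Apob* and *Mttp*, which make the particle, the apolipoproteins *Apoa1*, *Apoa2*, *Apoa4*, *Apoa5*, *Apoc2*, *Apoc3* and *Apom*, and the plasma enzyme *Lcat*. All non-control array probes whose gene name was one of these 10 names were taken. This gave 17 of the 56605 probes and 10 of the 37074 gene names on the array, of which 21056 genes had a probe that passed the signal filter. Liver RNA of 23 male C57Bl/6J mice was hybridised, 1 mouse per Agilent 1-colour array, and each group was defined by genotype and by 4 days of daily intraperitoneal injection. WT CONT (n = 6) were wild-type mice given corn oil, and WT PCN (n = 5) were wild-type mice given pregnenolone 16α-carbonitrile (PCN, a rodent PXR ligand) at 100 mg/kg in corn oil. Pxr-/- CONT (n = 6) and Pxr-/- PCN (n = 6) were mice without functional PXR given the same. All mice had free access to diet, and were killed in the light phase, 6 h having passed since the final dose. All mice were acclimatized for 2 weeks. WT mice were purchased at 6 weeks of age, whereas Pxr-/- mice came from a backcrossed colony kept in the facility. The age of the Pxr-/- mice is not given in the sources used here. Genotype therefore cannot be told apart from colony. No tissue restriction of the deletion is stated in those sources.

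As background, a hepatocyte makes a very low density lipoprotein (VLDL) by loading lipid onto the large structural protein apolipoprotein B as it is translated, a step that needs the microsomal triglyceride transfer protein encoded by *Mttp*. In plasma, apolipoprotein C-II activates lipoprotein lipase, apolipoprotein C-III opposes it and apolipoprotein A-V, made by the liver, favours it, so these proteins set how fast triglyceride leaves the particle. Apolipoproteins A-I, A-II, A-IV and M are carried by high density lipoprotein (HDL), where the enzyme LCAT, activated by apolipoprotein A-I, esterifies cholesterol.

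The data were log2 signals after quantile normalisation. A gene is said to have passed a comparison when limma's moderated test gave a Benjamini-Hochberg adjusted p of at most 0.05 over all 32087 probes kept, and to have been called when its fold change was also above 1.5. Changes are log2 differences with their standard error. The number of probes detected well above background ranged from 29510 to 33321 per array, and all 10 genes were so detected and unsaturated on all 23 arrays. Of the 17 probes 16 passed the signal filter, the exception being a dim second *Mttp* probe that was well above background on 6 arrays. The arrays had been washed in 2 batches, each with 3 mice per group apart from 2 WT PCN mice in the second batch. Before normalisation the mean log2 signal was 8.51 ± 0.12 (SD) in WT CONT, 8.65 ± 0.09 in WT PCN, 8.41 ± 0.14 in Pxr-/- CONT and 8.45 ± 0.07 in Pxr-/- PCN, so the changes below are relative to all probes of an array. *Cyp3a11*, a textbook PXR target, rose by 3.55 ± 0.23 after PCN in WT mice (adjusted p = 4.12e-10) against a change of 0.31 ± 0.22 without the receptor (adjusted p = 0.431). *Cyp2c55*, another target, rose by 6.26 ± 0.23 in WT mice (adjusted p = 4.89e-14) against a change of 0.54 ± 0.22 without the receptor (adjusted p = 0.14). The 2 genotypes did not start from the same level. Without PCN, *Cyp2c55* was 2.80 ± 0.22 higher in Pxr-/- CONT than in WT CONT (adjusted p = 1.53e-07). *Cyp3a11* was 0.69 ± 0.22 higher there without passing (adjusted p = 0.199). The *Nr1i2* probe, for the receptor itself, read 11.47 ± 0.55 (SD) in WT CONT and 11.44 ± 0.80 in Pxr-/- CONT, and since its place relative to the deleted part is not given in the sources used here it does not check the genotype. Of 8 hepatocyte markers 7 were on the array, and their summed signal lay between 20.48 and 20.67 (log2) on all arrays. That sum came after quantile normalisation, which gives the brightest probes similar values on every array, so it does not measure hepatocyte content. Fewer cells of a type and less RNA per cell cannot be told apart in whole liver.

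After PCN in WT mice, 3 of the 10 genes passed and all 3 were lower: *Apoa5*, *Apob* and *Lcat*. Of all 21056 genes, 24.1% passed in either direction and 12.4% passed as lower. *Apoa5* was the 1 gene called, against 2.39% of all genes called lower. For the same 3 genes no WT PCN array overlapped the WT CONT arrays, a separation shown by 12.4% of all genes. The median change of the 10 genes was -0.11 in WT mice and 0.00 in Pxr-/- mice, beside -0.02 and -0.01 over all genes.

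**Figure D1:**
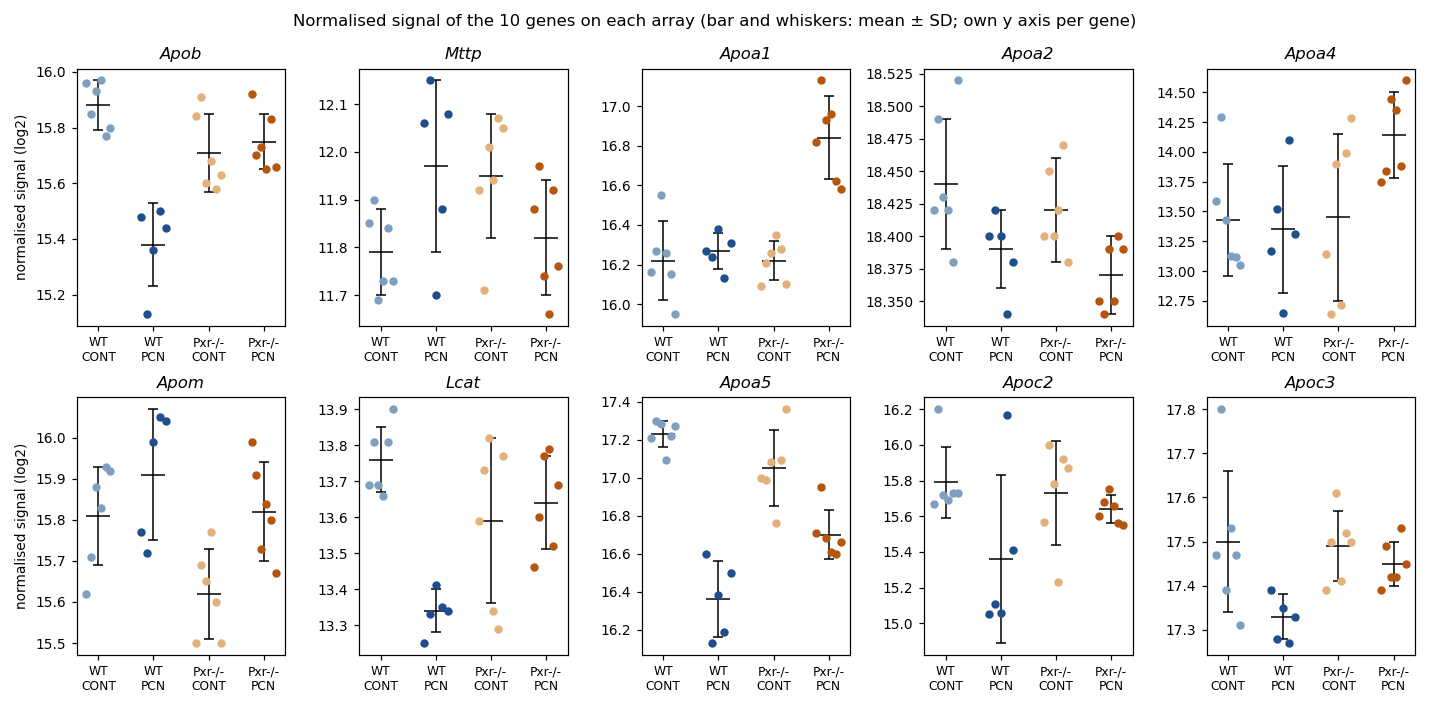
Normalised log2 signal of each of the 10 genes on every array (points, 5 or 6 per group), with the group mean ± SD as a bar with whiskers and a separate y axis for each gene. The 5 WT PCN arrays lie below all WT CONT arrays for Apob, Lcat and Apoa5, and the 6 Pxr-/- PCN arrays lie above all other arrays for Apoa1.

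The letters measured are shown for the genes on which the results turn. The 60-base probes below are from the array files (build mm9), and each one shown has at least 1 reading frame without a stop codon. The *Apoa5* probe read for the gene, at chr9:46079431-46079490, is not among those shown. Placement in exons was not determined here. The second *Apoa5* probe lies at chr9:46078579-46078638 on the plus strand, and the *Apoa1* probe at chr9:46037921-46037980 on the same strand. The *Apob* probes lie at chr12:8012697-8012756 and chr12:7992933-7994547 on the plus strand, and the latter spans 1615 genomic bases with its 60 letters, so it is cut across a gap in the genome. The *Lcat* probe lies at chr8:108463523-108463582 on the minus strand.
Apoa5, second probe: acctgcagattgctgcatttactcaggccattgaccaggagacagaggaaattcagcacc
Apob, probe read: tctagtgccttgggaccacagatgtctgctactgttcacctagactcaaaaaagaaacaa
Apob, second probe: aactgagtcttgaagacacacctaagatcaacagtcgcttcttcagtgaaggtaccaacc
Lcat: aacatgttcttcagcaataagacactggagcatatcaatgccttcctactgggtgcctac
Apoa1: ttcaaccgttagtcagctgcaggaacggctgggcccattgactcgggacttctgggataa

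*Apob*, the structural protein of VLDL, was lower in every WT PCN mouse. Its log2 signal was 15.48, 15.13, 15.36, 15.50 and 15.44 on the 5 WT PCN arrays, against a lowest, median and highest of 15.77, 15.89 and 15.97 in WT CONT. The groups did not overlap. The change was -0.52 ± 0.07 (1.43-fold lower, adjusted p = 1.25e-05), under the fold threshold for a call. The second *Apob* probe, across the gap named above, gave -0.50 ± 0.06 (adjusted p = 1.04e-05). Without PXR, *Apob* ran from 15.58 to 15.91 (median 15.66) in CONT and from 15.65 to 15.92 (median 15.72) in PCN. The ranges overlapped, and the change was 0.04 ± 0.06 (95% interval -0.09 to 0.17, adjusted p = 0.75).

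*Mttp*, the lipid transfer protein that works on apolipoprotein B, did not follow it. Its log2 signal was 12.06, 12.15, 11.70, 11.88 and 12.08 in WT PCN, against 11.69, 11.79 and 11.90 (lowest, median, highest) in WT CONT. The groups overlapped, with 3 WT PCN arrays above all WT CONT arrays. The change was 0.19 ± 0.08 in WT mice (95% interval 0.01 to 0.36, adjusted p = 0.122) and -0.13 ± 0.08 in Pxr-/- mice (adjusted p = 0.383), neither of which passed. Without replicate 3 of WT PCN, its lowest array, the WT change was 0.27 (adjusted p = 0.0235).

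*Apoa5*, which favours triglyceride hydrolysis, showed the largest WT change of the 10. Its log2 signal was 16.60, 16.13, 16.38, 16.19 and 16.50 in WT PCN, against 17.09, 17.25 and 17.30 (lowest, median, highest) in WT CONT. All WT PCN arrays were below all WT CONT arrays. *Apoa5* fell by 0.87 ± 0.10 (1.82-fold, adjusted p = 2.23e-06). The second *Apoa5* probe gave -0.97 ± 0.15 (1.96-fold lower, adjusted p = 7.85e-05), and its groups did not overlap either.

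The *Apoa5* probes gave different calls in Pxr-/- mice. The probe read for the gene ran from 16.76 to 17.36 (median 17.04) in CONT and from 16.60 to 16.95 (median 16.67) in PCN, so the groups overlapped. Its change was -0.35 ± 0.09 (1.27-fold lower, adjusted p = 0.0261). The second probe ran from 14.18 to 15.17 in CONT and from 14.27 to 14.71 in PCN and gave -0.13 ± 0.14 (adjusted p = 0.628), which did not pass. With the mean of both probes the change was -0.24 (adjusted p = 0.172), and with the deposited values it was -0.33 (adjusted p = 0.0648). It was -0.25 (adjusted p = 0.357) in the first washing batch alone and -0.44 (adjusted p = 0.144) in the second, and it also missed the threshold when any 1 of 5 arrays was left out (-0.35 to -0.28): replicates 3, 5 and 6 of Pxr-/- CONT and replicates 3 and 4 of Pxr-/- PCN.

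*Apoc2*, the activator of lipoprotein lipase, was split by 1 array. Its log2 signal was 15.05, 15.11, 15.06, 16.17 and 15.41 in WT PCN, against 15.67, 15.73 and 16.20 (lowest, median, highest) in WT CONT. Replicates 1, 2, 3 and 5 of WT PCN were below all WT CONT arrays and replicate 4 was above 5 of them. The change was -0.43 ± 0.17 (1.35-fold lower, adjusted p = 0.0667), and -0.34 ± 0.16 by the second probe (adjusted p = 0.136). Without replicate 4 of WT PCN the change was -0.63 and passed (adjusted p = 0.00138). It also passed without replicate 4 of Pxr-/- CONT (-0.43, adjusted p = 0.0455), an array outside this comparison that enters the shared estimate of spread. The change was -0.16 (adjusted p = 0.718) in the first washing batch alone, which held replicate 4 of WT PCN, and -0.79 (adjusted p = 0.0186) in the second. Without PXR the change was -0.09 ± 0.16 (adjusted p = 0.794).

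*Apoc3*, which opposes lipoprotein lipase, gave probe-dependent values. The brightest probe, read for the gene, was 17.39, 17.28, 17.35, 17.27 and 17.33 in WT PCN and 17.31, 17.47 and 17.80 (lowest, median, highest) in WT CONT. The groups overlapped and the change was -0.17 ± 0.07 (adjusted p = 0.0843). Without replicate 6 of WT CONT it was -0.21 and passed (adjusted p = 0.0257). The second probe was between 16.17 and 16.46 in WT PCN and between 16.54 and 16.89 in WT CONT, with no overlap, and its change of -0.37 ± 0.09 passed (adjusted p = 0.00495). The dimmest probe also passed (-0.36 ± 0.12, adjusted p = 0.0329), as did the mean of the 3 probes (-0.30, adjusted p = 0.0105). The array annotation assigns the 3 probes to 3 different transcripts of the gene. They also differ in brightness, with mean log2 signals of 17.44, 16.6 and 8.05 over all arrays. Why their values differ was not tested. After PCN in Pxr-/- mice the 3 probes gave changes of -0.04, 0.01 and -0.19, and none passed.

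**Figure D2:**
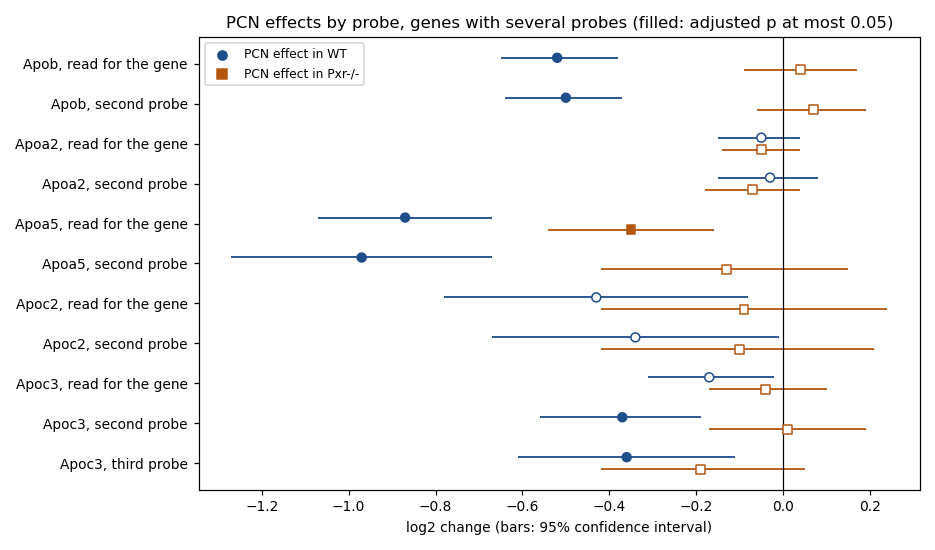
Log2 change after PCN in WT (circles) and Pxr-/- mice (squares) for the 11 probes of the 5 genes that have several, with 95% confidence intervals and filled symbols for an adjusted p of at most 0.05. Both Apob and both Apoa5 probes pass in WT mice, whereas for Apoc3 the other two probes pass (-0.37 and -0.36) and the probe read for the gene does not (-0.17).

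Among the HDL genes, *Lcat* was the member that passed in WT mice. *Lcat*, which esterifies cholesterol on HDL, was 13.25, 13.33, 13.41, 13.35 and 13.34 in WT PCN, against 13.66, 13.75 and 13.90 (lowest, median, highest) in WT CONT. The groups did not overlap. The change was -0.42 ± 0.09 (1.34-fold lower, adjusted p = 0.00187). It was -0.42 in each washing batch alone, with adjusted p = 0.0372 and 0.141. Without PXR, *Lcat* ran from 13.29 to 13.82 (median 13.66) in CONT and from 13.46 to 13.79 (median 13.64) in PCN, a change of 0.05 ± 0.09 (95% interval -0.13 to 0.22).

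*Apoa1*, the main protein of HDL, differed in the other genotype. Its log2 signal in Pxr-/- PCN ran from 16.58 to 17.13 (median 16.87), against 16.09 to 16.35 (median 16.24) in Pxr-/- CONT. The groups did not overlap, and *Apoa1* rose by 0.62 ± 0.10 (1.54-fold, adjusted p = 0.000955). Without replicate 2 of Pxr-/- PCN, the change was 0.56, under the fold threshold, and still passed. In WT mice *Apoa1* was 16.27, 16.24, 16.38, 16.13 and 16.31 in PCN, against 15.95, 16.21 and 16.55 (lowest, median, highest) in CONT. All WT PCN arrays lay within the WT CONT range, and the change was 0.04 ± 0.10 (95% interval -0.17 to 0.25, adjusted p = 0.816).

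The remaining HDL proteins did not pass in either genotype. *Apoa2* had the narrowest range of the 10 genes, 18.34 to 18.52 over all 23 arrays, and changed by -0.05 ± 0.05 in WT and -0.05 ± 0.04 in Pxr-/- mice. It was also the brightest of the 10, and quantile normalisation gives the brightest probes similar values on every array. The narrow range therefore does not show a steady level. With the 2 scalings to the 75th percentile *Apoa2* was 0.16 and 0.15 higher in Pxr-/- PCN than in WT PCN, beside -0.02 here, without passing. *Apom*, which carries sphingosine 1-phosphate on HDL, changed by 0.09 ± 0.08 in WT (adjusted p = 0.439) and 0.20 ± 0.08 in Pxr-/- mice (adjusted p = 0.119).

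*Apoa4*, made by the intestine and by the liver, had the widest spread within groups. It was 13.17, 13.52, 12.65, 14.10 and 13.31 in WT PCN and 13.05, 13.28 and 14.29 (lowest, median, highest) in WT CONT, and the change was -0.05 ± 0.29. Without PXR it ran from 12.64 to 14.28 (median 13.52) in CONT and from 13.75 to 14.60 (median 14.11) in PCN. The groups overlapped, and the change of 0.70 ± 0.27 did not pass (95% interval 0.13 to 1.26, adjusted p = 0.13). It was 1.19 (adjusted p = 0.0835) in the first washing batch alone and 0.21 (adjusted p = 0.82) in the second. Of 7 enterocyte markers 6 were well above background on at most 4 of 23 arrays. The remaining one, *Fabp2*, also expressed in liver, fell by 1.55 ± 0.16 after PCN in WT mice and by 0.81 ± 0.15 in Pxr-/- mice.

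After PCN, 2 of the 10 genes passed in Pxr-/- mice, *Apoa1* higher and *Apoa5* lower, beside 6.86% of all genes. *Apoa1* was the 1 gene called, where 1.42% of all genes were called higher, and the 1 gene whose groups did not overlap, where 3.15% of all genes did so.

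**Figure D3:**
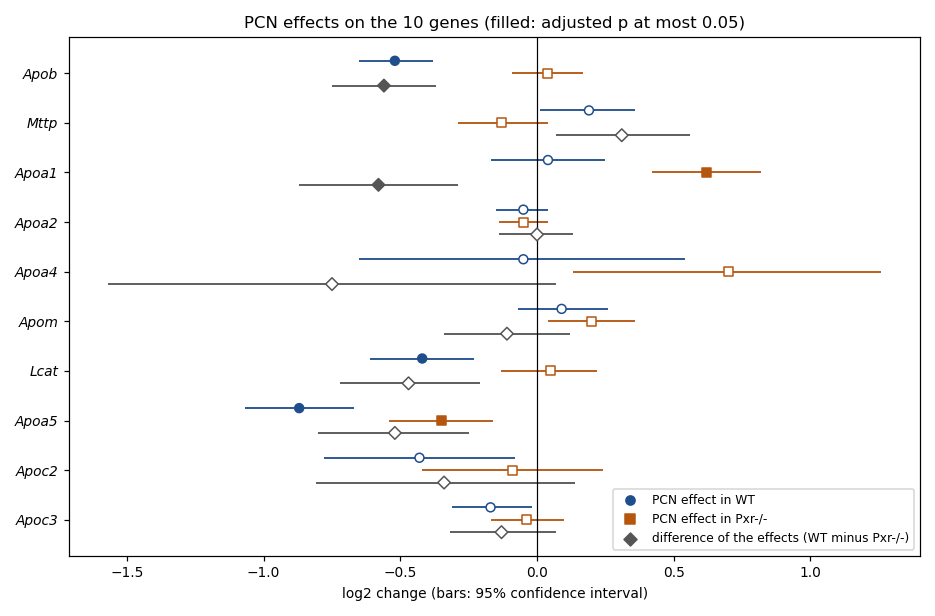
Log2 change of the 10 genes after PCN in WT mice (circles), in Pxr-/- mice (squares) and the difference between these effects (diamonds), with 95% confidence intervals and filled symbols for an adjusted p of at most 0.05. Apoa5, Apob and Lcat are filled below 0 in WT mice, Apoa1 is filled above 0 in Pxr-/- mice (0.62), and the differences of Apoa1 (-0.58) and Apob (-0.56) are filled.

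Whether PCN acted differently in the 2 genotypes was tested as the difference of the effects, WT minus Pxr-/-. *Apob* differed by -0.56 ± 0.09 (adjusted p = 0.00124), and by -0.57 ± 0.09 with its second probe (adjusted p = 0.00067). *Apoa1* differed by -0.58 ± 0.14 (adjusted p = 0.0344), with changes of 0.04 in WT and 0.62 in Pxr-/- mice. These 2 of 10 genes passed as lower, beside 0.508% of all genes. None of the 10 genes was called in either direction by limma, beside 1.05% of all genes, although 5 had an unadjusted p under 0.05. *Apoa5* differed by -0.52 ± 0.13 and just missed the threshold (adjusted p = 0.0519), whereas its second probe gave -0.83 ± 0.20 and was called (adjusted p = 0.0362). *Lcat* differed by -0.47 ± 0.12 (95% interval -0.72 to -0.21, adjusted p = 0.0646), so its fall in WT mice was not shown to differ from the change in Pxr-/- mice. That difference passed with an intensity trend in the variance (-0.47, adjusted p = 0.0469) and without replicate 2 or 3 of Pxr-/- CONT (-0.50 and -0.51). *Mttp* (0.31 ± 0.12, adjusted p = 0.206) and *Apoa4* (-0.75 ± 0.39, adjusted p = 0.40) did not pass.

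These differences depended on the processing more than the WT falls did. *Apob* missed the threshold with the scanner's processed signal (-0.36, adjusted p = 0.0637), with the values the authors deposited (-0.32, adjusted p = 0.152) and in either washing batch alone (-0.43 and -0.70). *Apoa1* missed it in these settings (-0.46, -0.40, -0.63 and -0.53), with the median signal scaled to the 75th percentile (-0.48), with no filter (-0.58), and when any 1 of 9 arrays was left out (-0.51 to -0.59): replicate 3 of WT CONT, replicates 2, 4 and 5 of WT PCN, replicates 1 and 6 of Pxr-/- CONT and replicates 2, 3 and 4 of Pxr-/- PCN. The difference for *Apoa5* passed with 5 of 11 other settings, and without replicate 4 of WT CONT, replicate 1 or 5 of WT PCN or replicate 6 of Pxr-/- CONT (-0.59 to -0.55).

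Without PCN, none of the 10 genes passed limma between Pxr-/- CONT and WT CONT, beside 0.494% of all genes, and for none did the groups avoid overlap, beside 0.836% of all genes. An unadjusted p under 0.05 was found for 2 genes, *Apom* (-0.19 ± 0.08, adjusted p = 0.347) and *Apob* (-0.17 ± 0.06, adjusted p = 0.278). The changes of *Apoa5* and *Lcat* were -0.18 ± 0.09 and -0.17 ± 0.09. An adjusted p over the threshold does not show that levels were equal.

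Between the PCN groups, which share their arrays with the comparisons above, 4 of the 10 genes passed and all were higher in Pxr-/- PCN, beside 3.92% of all genes. They were *Apoa1* (0.57 ± 0.10, adjusted p = 0.00129), *Apob* (0.38 ± 0.07, adjusted p = 0.000956), *Apoa5* (0.34 ± 0.10, adjusted p = 0.0328) and *Lcat* (0.29 ± 0.09, adjusted p = 0.0473). None of the 10 was called on the probe read for the gene, beside 2.09% of all genes, although 5 had an unadjusted p under 0.05. The groups did not overlap for these 4 genes, although the nearest *Apoa5* arrays were both at 16.60, beside 6.88% of all genes. The second *Apoa5* probe was called (0.64 ± 0.15, adjusted p = 0.00961). For *Apoc3* the probe read did not pass (0.12 ± 0.07, adjusted p = 0.302). Its second probe (0.30, adjusted p = 0.0441), its dimmest probe (0.39, adjusted p = 0.0468) and the mean of its probes (0.27, adjusted p = 0.0404) passed as higher. *Apoa4* was 0.76 ± 0.29 higher without passing (adjusted p = 0.104), and without replicate 4 of WT PCN it was 0.98 higher and passed (adjusted p = 0.046). *Apoc2* likewise passed without that array (0.48, adjusted p = 0.0335) and not with it (0.27, adjusted p = 0.335). *Lcat* lost its pass (0.25 to 0.31) when any 1 of 14 arrays was left out, namely replicates 1, 3 and 5 of WT CONT, each WT PCN array, replicate 1 of Pxr-/- CONT and replicates 2 to 6 of Pxr-/- PCN. *Apoa5* lost it (0.26 to 0.34) without replicate 2, 3 or 4 of WT PCN or replicate 1, 2 or 3 of Pxr-/- PCN. Among 12 other settings *Lcat* passed in 6, missing with the processed signal (0.23, adjusted p = 0.127) and the median signal scaled to the 75th percentile (0.24, adjusted p = 0.0893), with normexp (0.27, adjusted p = 0.0559), with no filter (0.29, adjusted p = 0.0789), with the replicate block (0.27, adjusted p = 0.0667) and with the deposited values. *Apoa5* passed in 7 of the 12, missing with the processed signal (0.34, adjusted p = 0.0696), the scaled median signal (0.33, adjusted p = 0.0599), no filter (0.34, adjusted p = 0.0556), only the groups compared (0.35, adjusted p = 0.0657) and the deposited values. Within washing batches alone none of the 4 passed, with changes of 0.55 and 0.58 for *Apoa1* and 0.35 and 0.43 for *Apob*.

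The scale of the values bears on these results. In the log2 values the authors deposited, the median change of all genes was 0.11 after PCN in WT mice and -0.19 between the PCN groups, beside -0.02 and 0.01 here. On that scale 84.3% of all called genes were higher after PCN in WT mice, beside 61.3% here, and 5.01% were higher in Pxr-/- PCN than in WT PCN, beside 34.9% here. There *Apoa5* (-0.65, adjusted p = 0.000114) and *Apob* (-0.26, adjusted p = 0.0194) still passed in WT mice and *Lcat* did not (-0.21, adjusted p = 0.11), whereas *Apom* (0.33, adjusted p = 0.0265) and *Mttp* (0.33, adjusted p = 0.0365) passed as higher. *Apoa1* in Pxr-/- mice was 0.67 (adjusted p = 0.00341). Between the PCN groups *Apoa1* was 0.34 (adjusted p = 0.0492), *Apom* (-0.35, adjusted p = 0.0181) and *Mttp* (-0.41, adjusted p = 0.0121) passed as lower, and *Apob*, *Apoa5* and *Lcat* did not pass, with changes of 0.09, 0.11 and 0.02.

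**Figure D4:**
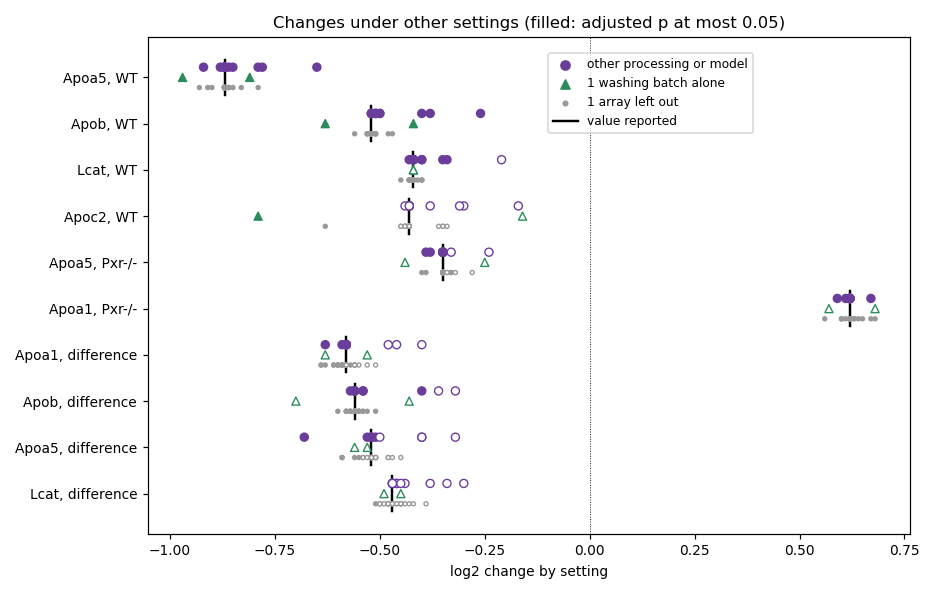
Log2 changes under each other setting (circles: other processing or model; triangles: 1 washing batch alone; dots: 1 array left out), with the reported value as a vertical bar and filled symbols for an adjusted p of at most 0.05. The WT falls of Apoa5 and Apob are filled in all settings, from -0.97 to -0.65 and from -0.63 to -0.26, and the rise of Apoa1 in Pxr-/- mice is open within each batch alone.

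What the genes share beyond their function was examined in position and upstream sequence. In the RefSeq table of the assembly GRCm38.p6, *Apoa1*, *Apoc3*, *Apoa4* and *Apoa5* stand next to each other in this order on chromosome 9, with no other gene of the table lying whole between them. On the probes read for the genes *Apoa5* alone of the 4 passed in WT mice, and *Apoa1*, at the other end, rose in Pxr-/- mice while *Apoa5* was lower.

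Promoters were read because PXR and several regulators of these genes are nuclear receptors, whose sites are built from 6-base half-sites. Of the 10 genes, 9 had a promoter entry in the RefSeq table and *Apoc3* had none. The 250 bases before the start site (202 for *Apob*) were searched on both strands for the word AGGTCA, the word GGGTCA, the word AGTTCA and the word GGTTCA, which can share end bases where they adjoin. At least 1 word was found in 8 of the 9 genes, *Mttp* being the exception, and in 38.6% of the 32851 upstream stretches in the table. The sequences of *Apoa5*, *Apob* and *Apoa1* are shown because these genes carried the results, with the words in capitals, all in GRCm38.p6 and on the plus strand. *Apoa5* is chr9:46268358-46268607, with 2 words on opposite strands 8 bases apart. *Apob* is chr12:7977427-7977628, cut to 202 bases where an earlier start of the gene is annotated, with 1 word. *Apoa1* is chr9:46228380-46228629, with 2 words on the same strand 79 bases apart. A match is a description of letters and not evidence that a receptor binds there.
Apoa5 upstream: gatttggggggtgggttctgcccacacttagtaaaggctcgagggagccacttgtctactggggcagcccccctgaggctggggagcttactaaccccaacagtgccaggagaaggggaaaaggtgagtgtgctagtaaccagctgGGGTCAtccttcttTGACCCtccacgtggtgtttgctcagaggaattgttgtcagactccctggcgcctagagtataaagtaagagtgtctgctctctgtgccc
Apob upstream: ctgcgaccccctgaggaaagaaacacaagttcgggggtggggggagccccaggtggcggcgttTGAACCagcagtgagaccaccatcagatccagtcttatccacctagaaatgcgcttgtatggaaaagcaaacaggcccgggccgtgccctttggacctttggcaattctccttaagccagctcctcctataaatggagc
Apoa1 upstream: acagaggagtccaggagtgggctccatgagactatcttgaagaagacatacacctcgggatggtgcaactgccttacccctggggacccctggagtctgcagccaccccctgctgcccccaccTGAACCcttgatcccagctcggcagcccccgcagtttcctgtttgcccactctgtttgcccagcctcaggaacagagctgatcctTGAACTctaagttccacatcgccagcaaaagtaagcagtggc

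The rest of the pathway was read from 98 other genes in 6 lists, all of which passed the signal filter. After PCN in WT mice 9 passed as higher and 25 as lower, and 3 and 12 were called, with a median change of -0.15. Over all 21056 genes 24.1% passed in either direction, 12.4% passed as lower, 2.39% were called lower and 798 genes were called higher. The Pxr-/- mice gave 5 passed as higher and 8 as lower, 2 and 5 called, with a median of -0.05. Of all 21056 genes, 6.86% passed in either direction and 1.42% were called higher, while 764 genes passed as lower and 181 were called lower. The list of 22 regulators held the most falls in WT mice, with 12 lower and 1 higher passing and a median of -0.36. Of 14 other apolipoproteins 6 were lower and 1 higher, of 24 assembly and secretion partners 5 were lower and 4 higher, and of 10 lipid supply genes none passed. Of 17 plasma remodelling genes 1 was lower and 1 higher, and of 11 receptors 1 was lower and 2 higher.

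*Ppara*, a nuclear receptor that controls fatty acid use, was 14.58 in WT CONT and 13.54 in WT PCN (group means) and fell by 1.05 ± 0.10 (adjusted p = 2.17e-07), with a change of -0.18 ± 0.09 in Pxr-/- mice (adjusted p = 0.265). The effects differed (-0.87 ± 0.14, adjusted p = 0.000882). *Nr1h4*, the bile acid receptor, fell by 0.35 ± 0.10 in WT mice (adjusted p = 0.0129), and the effects differed for it too (-0.62 ± 0.14, adjusted p = 0.0213). *Hnf4a*, a receptor known to drive many apolipoprotein genes, changed by 0.00 ± 0.11 in WT mice (adjusted p = 0.998) and rose by 0.36 ± 0.10 in Pxr-/- mice (adjusted p = 0.0371). *Creb3l3*, which drives *Apoa4* and *Apoa5* in fasting, fell by 0.30 ± 0.09 in WT mice (adjusted p = 0.0237) with a change of -0.15 ± 0.09 without PXR (adjusted p = 0.336). The coactivator *Ppargc1a* fell in both genotypes (-1.20 ± 0.18, adjusted p = 9.88e-05, and -0.96 ± 0.18, adjusted p = 0.0031), and *Nr0b2*, a corepressor, fell by 1.03 ± 0.33 in WT mice (adjusted p = 0.0296). Of the 22 regulators 2 passed for the difference of the effects, *Ppara* and *Nr1h4*, both as lower, beside 0.508% of all genes. The effects were thus not shown to differ for *Hnf4a*, *Creb3l3*, *Ppargc1a* or *Nr0b2*.

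Among the other genes called, *Apol7a* fell by 1.07 ± 0.18 in WT mice (adjusted p = 0.000253). *Apol9a* fell in both genotypes (-0.82 and -0.62), as did *Apol9b* (-0.74 and -0.63), and since these copies are near-identical the array may not tell them apart. *Ces1d*, a carboxylesterase that hydrolyses stored triglyceride, rose by 1.07 ± 0.22 in WT mice (adjusted p = 0.00165). *Saa4*, an HDL apolipoprotein of the serum amyloid family, rose by 1.02 ± 0.24 in Pxr-/- mice (adjusted p = 0.0127), and its effects were not shown to differ (-0.92 ± 0.34, adjusted p = 0.204). *Elovl5*, a fatty acid elongase, fell in Pxr-/- mice by 0.85 ± 0.23 (adjusted p = 0.0294) and the coactivator *Ppargc1b* by 1.07 ± 0.19 (adjusted p = 0.00255). *Foxo1*, a transcription factor restrained by insulin, was 0.64 ± 0.16 higher in Pxr-/- PCN than in WT PCN (adjusted p = 0.0204). With the deposited values 4 of the 98 genes were called lower in WT mice instead of 12, and over all genes 259 instead of 504.

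**Figure D5:**
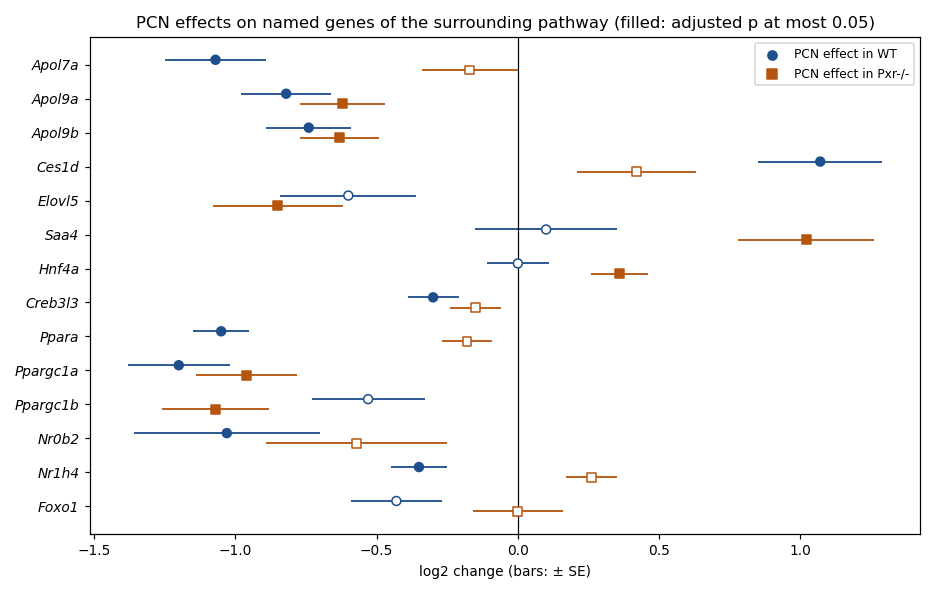
Log2 change (± SE) after PCN in WT (circles) and Pxr-/- mice (squares) of 14 named genes from the lists of other apolipoproteins, assembly, lipid supply, plasma remodelling and regulation, with filled symbols for an adjusted p of at most 0.05. Ppara is filled in WT mice alone (-1.05), Ppargc1a in both, and Hnf4a in Pxr-/- mice alone (0.36), although the effects on Hnf4a were not shown to differ.

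Markers of other cells were set beside these results. None of 7 hepatocyte markers passed in WT mice, and *Hpx* rose by 0.40 in Pxr-/- mice (adjusted p = 0.032). No Kupffer, endothelial or pancreas marker passed in either PCN comparison, and 1 of 2 blood markers kept, *Alas2*, fell by 0.43 in WT mice (adjusted p = 0.0422). Of 7 stellate cell markers *Col1a1* and *Col3a1* rose in both genotypes (3.17 and 2.18 in WT, 1.96 and 1.22 in Pxr-/- mice). The summed stellate signal ran from 14.37 to 15.13 in WT CONT and from 14.80 to 15.26 in WT PCN. *Dcn*, the brightest of these markers (mean 14.37 in WT CONT and 14.35 in WT PCN), dominates that sum, which therefore does not track the collagens. *Sox9*, 1 of 5 cholangiocyte markers, rose by 0.76 in WT mice, and the summed cholangiocyte signal ran from 10.49 to 12.20 in WT CONT and from 11.68 to 12.96 in WT PCN. Their part in the changes of the 10 genes was not tested.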

How the data were processed

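Liver RNA of 23 mice was measured on 1-colour arrays, 1 array per mouse. Groups, replicate numbers and washing batches came from the labels, slides (8) from the array files. Per the file headers, the deposited scanner files hold spot intensity from Agilent Feature Extraction 10.10.1.1 on a linear scale, with other columns of quality flags per spot, and give probe positions in mm9. The authors also deposited log2 values for 32574 probes, which by the study's methods were filtered, corrected for washing batch and normalised with CrossNorm.

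Here the log2 median signal was used: outlier spots (2225) were set to missing, spots of a probe averaged, probes kept when well above background on more than 50% of a group's arrays (32087 of 56605), and values quantile normalised. A gene was read from its kept, unsaturated probe with the highest mean. One fit of all arrays in limma 3.58.1 (R 4.3.3; data.table version 1.17.8) had a term per group and an additive washing batch, leaving 18 residual degrees of freedom, and gave 5 contrasts. P-values were adjusted by Benjamini-Hochberg over all probes. Arrays count no molecules, so their number limits the precision. The highest correlation between 2 arrays was 0.996 and at most 0.209% of their values were identical, so no array was a copy. The fit was tested on simulated data.

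The members and lists were chosen with earlier results of these data known. Named from the lists were the called genes with the largest changes, at most 6 per contrast, and *Hnf4a*, *Creb3l3* and *Ppara* whatever their values; *Nr1i2*, *Cyp3a11* and *Cyp2c55* served as checks. The array held 98 of the 99 listed genes. Alternatives were other signals and scalings (normexp with an offset of 50; each array's 75th percentile; the deposited values), other filters, models (slide as a random block among them) and probe rules, no minimum fold, each batch alone and each array left out. Each mouse was 1 replicate; within-array repeats were averaged.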

Additional observations from a re-analysis of the deposited data

Results flagged for a closer look

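*Apob* and *Apoa1* stood out because the effect of PCN in WT mice differed from that in Pxr-/- mice by the test of that difference, by -0.56 for *Apob* and by -0.58 for *Apoa1* on the log2 scale.

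A single array stood apart from the others of its group in 2 of the 40 groups of values examined (10 genes in 4 groups), where chance gives about 1 in 20. *Apoa5* was 16.95 on replicate 2 of Pxr-/- PCN, with the next array at 16.71, and without that array the change in Pxr-/- mice still passed. *Apoc2* was 16.20 on replicate 2 of WT CONT, with the next array at 15.73.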

How the results depend on the processing

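Falls of *Apoa5* and *Apob* in WT mice passed in all 12 other settings, in both washing batches alone and with each of 23 arrays left out. *Lcat* in WT mice passed in 11 of 12, missing with the deposited values, and *Apoa1* in Pxr-/- mice in all 12 but in neither batch alone (0.57 and 0.68, adjusted p = 0.101 and 0.0786), where fewer arrays enter. The cause of the other changes was not tested.

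Among the 10 genes, the count called lower in WT mice (1) was 3 in washing batch 2 alone and with no minimum fold, and 1 to 2 with 1 array left out, the 2 without replicate 4 of WT PCN. The count called higher in Pxr-/- mice (1) was 0 in either batch alone and 0 to 1 with 1 array left out, the 0 without replicate 2 of Pxr-/- PCN, and the count called lower (0) was 1 with no minimum fold. The difference between the effects, lower (0), was 1 with normexp and with the mean of probes, 2 with no minimum fold, and 0 to 2 with 1 array left out: 2 without replicate 1 of WT PCN or 5 of WT CONT, and 1 without replicate 1 or 6 of WT CONT, 3 of WT PCN, 3, 4, 5 or 6 of Pxr-/- CONT or 1, 5 or 6 of Pxr-/- PCN. The count higher in Pxr-/- PCN than WT PCN (0) was 4 with no minimum fold and 0 to 1 with 1 array left out, the 1 without replicate 3 or 4 of WT PCN or 5 or 6 of Pxr-/- PCN. Over all genes, those called lower in WT mice were 504 here, 304 in batch 2 and 2618 with no minimum fold. Those called higher in Pxr-/- mice were 300 here, 36 in batch 1 and 49 in batch 2. In those mice 181 were called lower here and 764 with no minimum fold. For the difference, lower, they were 51 here, 57 with normexp, 54 with the mean of probes and 107 with no minimum fold. Between the PCN groups, 154 were higher here and 825 with no minimum fold.

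Among the 98 other genes, the WT count called higher (3) was 5 with the deposited values and 9 with no minimum fold, and that called lower (12) was 4 with the deposited values and in batch 2 alone and 25 with no minimum fold. In Pxr-/- mice the count called higher (2) was 1 with either 75th percentile scaling, normexp, either batch alone and the mean of probes, 5 with no minimum fold and 1 to 2 with 1 array left out; that called lower (5) was 0 in batch 1, 1 in batch 2, 8 with no minimum fold and 2 to 6 with 1 array left out. For the difference, higher (0) was 1 with either 75th percentile scaling, normexp, the deposited values, batch 2 and the mean of probes, and 0 to 1 with 1 array left out. Lower (2) was 1 with either 75th percentile scaling, the deposited values and the mean of probes, 0 in batch 2, 4 with no minimum fold and 1 to 3 with 1 array left out. Between the controls, higher (0) was 2 in batch 2. Between the PCN groups, higher (4) was 0 with the deposited values and in batch 2, 2 with the mean of probes, 11 with no minimum fold and 2 to 5 with 1 array left out, and lower (0) was 1 with either 75th percentile scaling, 4 with the deposited values, 2 with no minimum fold and 0 to 1 with 1 array left out. Over all genes the WT counts called higher were 798 here, 1390 with the deposited values and 2446 with no minimum fold. Those called lower were 504 here, 259 with the deposited values, 304 in batch 2 and 2618 with no minimum fold. In Pxr-/- mice 181 were called lower here, 19 in batch 1 and 44 in batch 2. Between the PCN groups 154 were higher here, 55 with the deposited values and 18 in batch 2.

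Some changes that had not passed changed sign. In WT mice *Apoa1* was -0.05 in batch 1, 0.00 with the replicate block and -0.01 to 0.11 with 1 array left out, and *Apoa4* was 0.01 and 0.02 with the processed and median signals at the 75th percentile, 0.15 with the deposited values and in batch 1, and -0.27 to 0.20 with 1 array left out. In Pxr-/- mice *Apob* was -0.02 with the processed signal, *Apoc2* 0.04 and *Apoc3* 0.01 in batch 1, and *Lcat* -0.02 to 0.09 with 1 array left out. For the difference, *Apoa2* was 0.01 in batch 1, 0.02 with the mean of probes and -0.02 to 0.01 with 1 array left out, and *Apom* was 0.04, 0.02 and 0.10 with the processed signal, the median signal and the deposited values. Between the controls, with the processed and median signals at the 75th percentile, *Apoa1* was 0.11 and 0.08, *Apoa2* 0.08 and 0.05, *Apoc2* 0.05 and 0.03 and *Apoc3* 0.09 and 0.09. There *Apoa1* was also 0.05 in batch 2 and *Apoa2* 0.02 in batch 1, *Apoa4* was -0.09 with the deposited values and -0.54 in batch 1, and *Apoc3* was 0.04 with the mean of probes. With 1 array left out these were -0.07 to 0.06 for *Apoa1*, -0.13 to 0.16 for *Apoa4*, -0.12 to 0.04 for *Apoc2* and -0.05 to 0.05 for *Apoc3*. Between the PCN groups *Apoa2* was 0.16 and 0.15 with the processed and median signals and 0.01 in batch 1, and *Apoc2* was -0.01 with the deposited values.

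The replicate numbers were not used as pairs in the fit. The deviations of 33 same-numbered pairs correlated from -0.17 to 0.61, 13 over 0.1, and 7 of 23 arrays correlated best with their own number. No chance level was computed for these values, so they do not settle whether the numbers pair the arrays. With the replicate block 1 of the 10 genes was called lower for the difference and 1 higher between the PCN groups, and 1 of the 98 other genes was called higher for the difference. Over all genes those counts were 58, 164 and 179 with the block, beside 51, 154 and 170 without it. The pass of *Lcat* between the PCN groups was lost with the block (0.27, adjusted p = 0.0667).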
